A study of Mus musculus with 6 samples.

Results

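Pairs of alternative splice acceptors were collected from lists of exons with alternative ends, 1 list per library. The tissue was the nucleus accumbens (NAc), part of the ventral striatum and of the brain's reward system. Such a pair is formed by exons of a gene that share the downstream end and differ at the upstream end, within a library. The acceptor that makes the longer exon is called the outer acceptor and the other the inner acceptor, and the bases between them are the extra bases, whose number is the shift. Over 6 libraries, 3969 pairs were found in 2442 of the 16154 genes with any listed event (15.1%). The lists held 133207 events in all, which also comprise skipped exons, retained introns and transcript starts and ends.

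The mice were male C57BL/6N, aged 7 to 8 weeks, and trained in conditioned place preference (CPP), in which an injection is repeatedly paired with a distinct compartment. Mice of the morphine group were conditioned on 6 days with morphine at 10 mg/kg per injection, alternating with saline between morning and afternoon sessions. Mice of the saline group received saline. The test followed on day 7, and the NAc was collected shortly after it. Each group had 3 libraries of total RNA. The series description counts more mice than samples per group, while a figure legend of the study assigns 1 mouse to each library, and pooling of animals is therefore not settled. All animals went through the apparatus and the injections. All 15 genes of a list of striatal medium spiny neuron markers were among the listed genes. So were all 16 oligodendrocyte, 10 astrocyte and 8 microglia markers and 9 of 10 vascular and ependymal markers. Being listed therefore does not mark out striatal neurons. The event lists hold the presence of an event and no level, so a pair was either listed or not listed in a library.

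The acceptor is the end of an intron, where the spliceosome recognises a branch point, a tract of pyrimidines and an AG dinucleotide that closes the intron. When a second AG lies near the first, either can be used, and the shortest common form is the tandem acceptor NAGNAG, which adds or removes a single codon. A shift that is a multiple of 3 keeps the reading frame of a coding exon, and any other shift changes the frame downstream. In brain, many channels, scaffold proteins and RNA-binding proteins are made in isoforms that differ by such small in-frame pieces.

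Coding tandem acceptors listed in all 6 libraries are shown first, for 5 genes, since they are the smallest in-frame change an acceptor can make. Sequences were read from GENCODE M21 transcripts on GRCm38, 5′ to 3′ on the strand of the gene. Capitals mark the extra bases, with 30 bases of the spliced transcript on either side. The 30 bases before the capitals come from upstream exons, so the intron and the AG before the outer acceptor are not shown. The bases after the capitals can run into the next exon where the exon is short. Only Hnrnpc was named by the rule for named genes, which asked for a gene of the gene lists, and the other 4 genes were chosen after their values were seen.
Hnrnpc: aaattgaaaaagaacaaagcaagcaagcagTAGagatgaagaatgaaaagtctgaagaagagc
Immt: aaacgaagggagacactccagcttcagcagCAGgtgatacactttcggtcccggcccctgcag
Terf2: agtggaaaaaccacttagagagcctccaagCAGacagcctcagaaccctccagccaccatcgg
Usp19: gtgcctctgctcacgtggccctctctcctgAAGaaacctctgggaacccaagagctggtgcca
Pum2: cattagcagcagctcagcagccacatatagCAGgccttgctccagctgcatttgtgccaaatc

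Hnrnpc encodes hnRNP C, which binds uridine tracts of pre-mRNA, and its extra bases lie at chr14:52075413-52075415 (minus strand). Immt, a protein that shapes the inner mitochondrial membrane, has them at chr6:71852763-71852765 (plus strand), and Terf2, a telomere-binding protein, at chr8:107076997-107076999 (minus strand). In the deubiquitinase Usp19 they are at chr9:108493561-108493563 (plus strand). In Pum2, a Pumilio protein that represses translation, they are at chr12:8719003-8719005 (plus strand). The extra bases were CAG in 3 of these 5 genes, TAG in Hnrnpc and AAG in Usp19.

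Longer in-frame pieces in synaptic, RNA-binding and chromatin genes are shown next, and all of these were listed in each of the 6 libraries with both acceptors annotated. They come from the genes named by list, and were chosen for printing after their values were seen.
Ank2: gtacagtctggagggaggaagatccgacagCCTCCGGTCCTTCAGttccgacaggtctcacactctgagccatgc
Ank3: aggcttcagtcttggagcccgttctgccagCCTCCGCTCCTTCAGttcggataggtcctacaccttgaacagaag
Celf1: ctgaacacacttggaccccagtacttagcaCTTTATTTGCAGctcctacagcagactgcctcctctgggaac
Celf2: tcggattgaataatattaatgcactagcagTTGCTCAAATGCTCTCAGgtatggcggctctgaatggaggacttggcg
Dlg1: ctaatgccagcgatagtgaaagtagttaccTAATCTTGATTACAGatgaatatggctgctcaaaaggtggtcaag
Kalrn: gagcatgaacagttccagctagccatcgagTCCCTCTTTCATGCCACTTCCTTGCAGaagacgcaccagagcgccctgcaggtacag
Arrb2: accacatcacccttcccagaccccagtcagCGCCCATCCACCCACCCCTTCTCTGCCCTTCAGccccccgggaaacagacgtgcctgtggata
Chd4: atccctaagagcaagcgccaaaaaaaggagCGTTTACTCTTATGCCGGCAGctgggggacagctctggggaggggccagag

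Ank2 and Ank3 encode ankyrin-B and ankyrin-G, adaptors that tie membrane proteins to the spectrin skeleton, and Ank3 organises the axon initial segment. Their pairs lie on different chromosomes, at chr3:126976933-126976947 (minus strand) and chr10:69932394-69932408 (plus strand). Both had a shift of 15 before a shorter exon of 88 bases, and 14 of the 15 extra bases were identical (93.3%). The RNA-binding proteins Celf1 and Celf2 had shifts of 12, at chr2:91006620-91006631 (plus strand), and 18, at chr2:6553965-6553982 (minus strand). In Dlg1, the scaffold SAP97, the extra bases at chr16:31854653-31854667 (plus strand) precede an exon of only 21 bases. Those of Kalrn, a guanine nucleotide exchange factor of dendritic spines, were 27 bases at chr16:34220248-34220274 (minus strand). In Arrb2 (beta-arrestin 2), which binds activated opioid receptors, they were 33 bases at chr11:70439818-70439850 (plus strand). Those of Chd4, a remodelling ATPase of the NuRD complex, were 21 bases at chr6:125100778-125100798 (plus strand). In all 8 genes the extra bases ended in AG.

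The dinucleotides before the acceptors were read from annotated transcripts over the whole set. Both acceptors were annotated in 62.8% of pairs, and unannotated acceptors were not counted separately. The shares below therefore describe sequence of annotated transcripts and are no independent check of the label. The dinucleotide before the inner acceptor could be read in 2673 pairs, and it was AG in 2668 (99.8%). Before the outer acceptor it was AG in 1064 of 1069 pairs that could be read (99.5%). The 5 inner acceptors without AG were 3 pairs of Arf3, on the strand opposite to this gene and listed in saline library 1, a pair of Tbp with a shift of 126 listed in 1 library, and a pair of Thoc2 with a shift of 10 listed in 4 libraries. These genes were named after their values were seen. Among the mirror class, donor pairs with a shared upstream end and different downstream ends, the inner donor read GT in 1816 of 1891 cases (96.0%) and GC in 75.

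A pyrimidine-rich stretch stood before the inner acceptor. For shifts of 30 or more, where the window lies inside the extra bases, C or T made up 70.7% of bases at positions -20 to -5 and 47.4% at positions 5 to 20 of the exon, over 1903 pairs that could be read. The values were 71.5% and 47.9% in 290 pairs listed in all 6 libraries, and 70.7% and 48.0% in 939 pairs listed in 1 library. The profile of pyrimidines by position thus had the same form in pairs listed once and in pairs listed always.

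**Figure D1:**
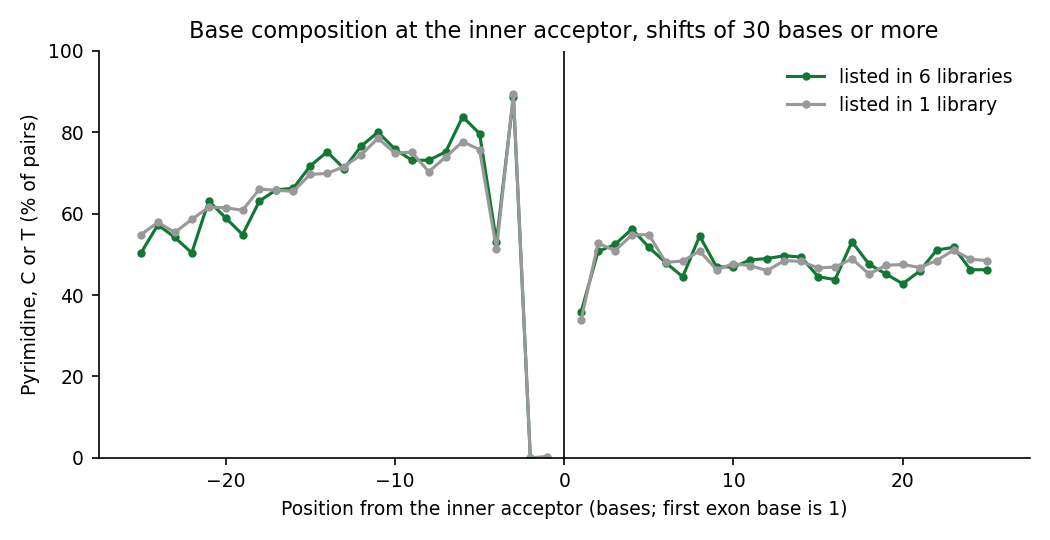
Share of pairs with C or T (percent, vertical axis) at each position from the inner acceptor (bases, horizontal axis), for pairs with a shift of 30 or more listed in 6 libraries or in 1 library. The curves lie between 54.8% and 83.8% from -20 to -5 in pairs listed in 6 libraries, drop to near 0 at the AG and stay between 42.8% and 54.5% from 5 to 20.

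Most pairs fitted the annotation at least in part. Both acceptors were annotated in GENCODE M21 in 2492 pairs (62.8%), only the inner in 766 (19.3%), only the outer in 615 (15.5%) and neither in 96 (2.42%). The shared downstream end was an annotated donor in 98.1%, the strand was that of the gene in 98.2%, and 3948 pairs (99.5%) lay in protein-coding genes. Of 3211 shared ends, 2846 (88.6%) had 2 acceptors and 365 (11.4%) had 3 or more, with 6 at most. Pairs that share an end are therefore not independent of each other. In 1322 pairs (33.3%) the extra bases contained a whole annotated exon of the gene. Of these 1322, 180 (13.6%) also contained an intron that was listed as retained.

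The shift ranged from 2 to 31103 bases with a median of 100. It was a multiple of 3 in 1642 pairs (41.4%), left a remainder of 1 in 1184 (29.8%) and a remainder of 2 in 1143 (28.8%), where equal shares would give 33.3%. The most frequent single shift was 3, with 81 pairs, followed by 15. Shifts of 4 to 9 were rare, with 47 pairs together (1.18%), whereas 10 to 30 bases held 754 pairs (19.0%), 31 to 100 held 1106 (27.9%), those over 100 and up to 1000 held 1108 (27.9%) and those over 1000 held 869 (21.9%). Of the 869 longest, 712 contained a whole annotated exon.

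**Figure D2:**
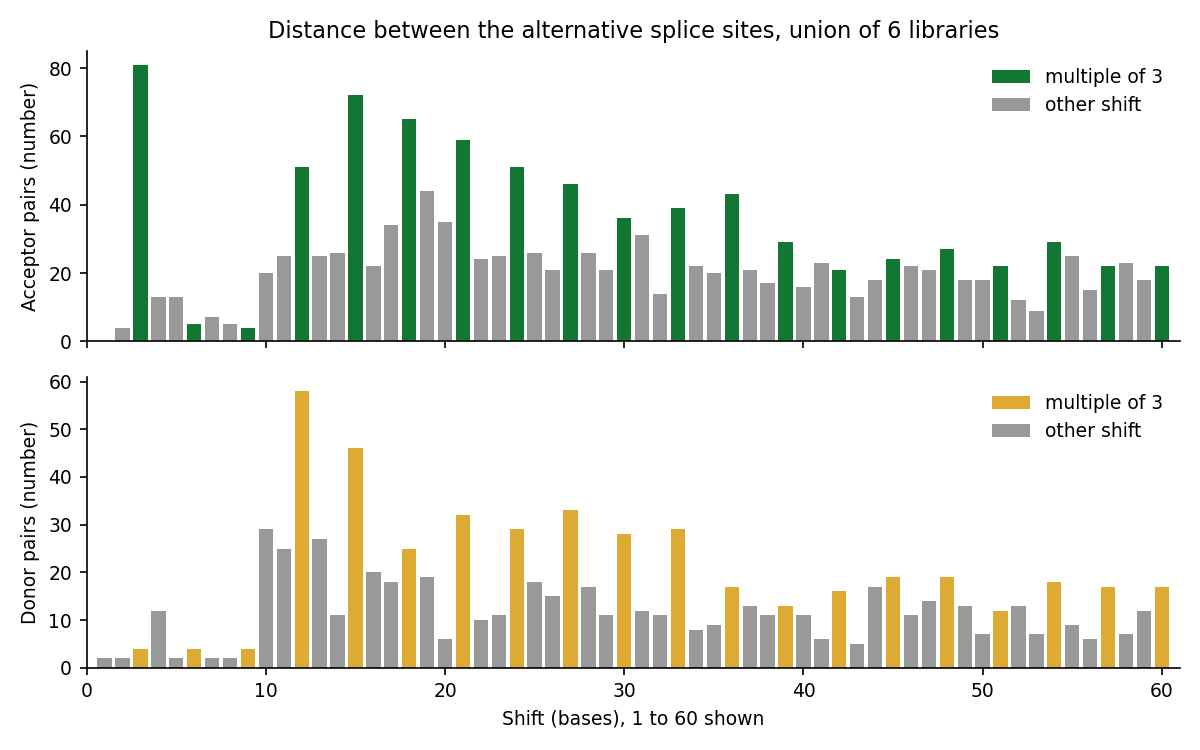
Number of acceptor pairs (upper panel) and donor pairs (lower panel) at each shift from 1 to 60 bases, over the union of 6 libraries, with multiples of 3 in colour. Acceptor pairs peak at 3 with 81 pairs, where donor pairs number 4, and both classes are thin from 4 to 9 bases.

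The same rule was applied to the internal exons of GENCODE M21 in the listed genes, which gave 10186 annotated pairs. Their shift was a multiple of 3 in 42.6%, against 41.4% of the listed pairs. For shifts of 10 to 30 the shares were 47.0% of annotated and 50.4% of listed pairs, and for 31 to 100 they were 38.1% and 40.1%. The share in the listed pairs was thus near that of the annotation. Of these, 983 (9.65%) had a shift of 3 and 823 (8.08%) a shift of 4 to 9. Only 46 of the 983 (4.68%) were listed in any library, and 17 of the 823 (2.07%). In contrast, 415 of 1488 annotated pairs with a shift of 10 to 30 were listed (27.9%), and 560 of 2283 with a shift of 31 to 100 (24.5%). Of the 163 annotated pairs with a shift of 1 or 2, 0 were listed. The numbers of shifts below 10 therefore describe the lists, and short shifts were listed far less often than annotated pairs of 10 to 100 bases, for a reason that was not tested.

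The 81 pairs with a shift of 3 lay in 75 genes, 62 in coding sequence and 14 in the 5′ UTR. In 77 of them the extra bases could be read, and they were CAG in 59 (76.6%), TAG in 10 (13.0%) and AAG in 8 (10.4%), with no GAG. The outer acceptor was preceded by AG in all 40 pairs where it could be read. Both acceptors were annotated in 51 pairs. In 10 pairs the shift of 3 was listed in all 6 libraries, in 28 in at least 3 and in 40 in a single library. The 10 pairs comprise 7 coding pairs, 5 of them shown above, and pairs in the 5′ UTR of Asah2 (a neutral ceramidase), Ube2f (a NEDD8-conjugating enzyme) and Trp53i11, all 3 chosen after seeing their values. Atn1, a gene long known for a tandem acceptor, was listed with a shift of 3 only in morphine library 3, and Tenm2, a teneurin adhesion protein, in saline library 2 and morphine libraries 2 and 3.

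Pairs differed widely in how often they were listed. A single library listed 2252 pairs (56.7%), and 597, 267, 196 and 182 pairs were listed in 2, 3, 4 and 5 libraries. All 6 libraries listed 475 pairs (11.97%), in 423 genes. Absence of a pair seldom meant absence of the gene, since in 14953 of 15023 cases (99.5%) the library without the pair listed the gene with another event. Donor pairs were listed in all 6 libraries in 337 of 3093 cases (10.9%).

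Pairs listed in more libraries were shorter, more often annotated and more often in frame. The median shift was 189 in pairs of 1 library and 43 in pairs of 6 libraries. Both acceptors were annotated in 51.3% and 93.9% of them, and the extra bases contained a whole annotated exon in 40.5% and 8.84%. The shift was a multiple of 3 in 35.0%, 42.5%, 39.0%, 44.9%, 51.1% and 66.3% of pairs listed in 1, 2, 3, 4, 5 and 6 libraries. These shares describe the same 3969 pairs and were not tested. Whether the authors' assembly was guided by annotation is not given in the sources used here, and its part in the share of annotated pairs was not tested.

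Shifts that keep the frame were most common in coding sequence. The extra bases were coding in 1384 pairs (34.9%), and 55.7% of these had a shift that is a multiple of 3. Their share was 41.0% in the 593 coding pairs listed once, 50.8%, 52.8%, 57.4% and 69.2% in those listed in 2 to 5 libraries, and 83.4% in the 302 listed in all 6, or 252 pairs. In the 5′ UTR, which held 381 pairs (9.60%), the share was 32.8% in all and 36.1% in the 108 pairs listed in all 6 libraries. It was 35.7% in 566 pairs whose extra bases touch no annotated exon of the gene. These are called intronic here and include pairs on the strand opposite to the gene. Coding donor pairs gave 38.6% when listed once and 80.8% when listed in all 6 libraries, so the increase was not limited to acceptors. The 5′ UTR held 2.59% of donor pairs. Coding pairs that keep the frame in all 6 libraries include the 8 longer pieces shown above.

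**Figure D3:**
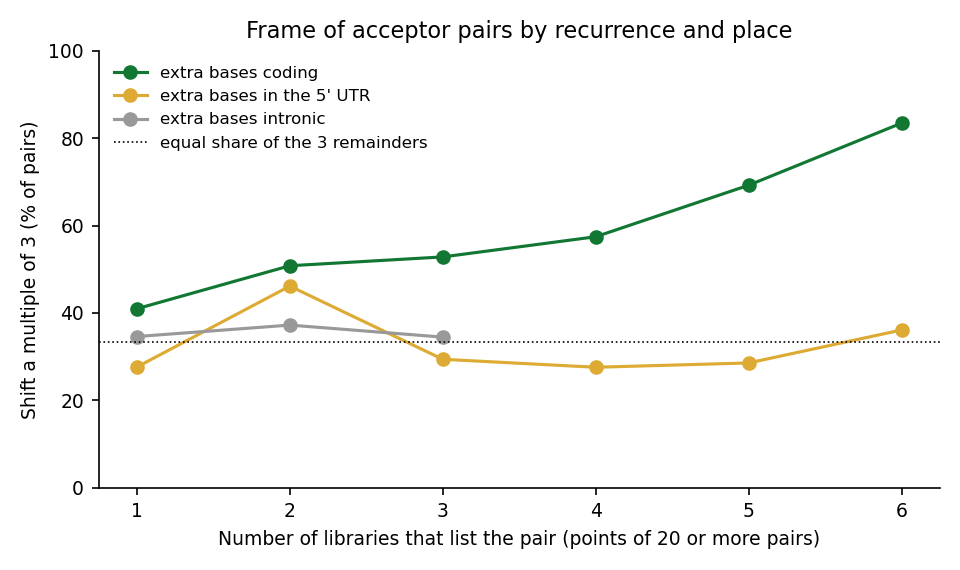
Share of acceptor pairs whose shift is a multiple of 3 (percent, vertical axis) by the number of libraries that list the pair (horizontal axis), for coding, 5′ UTR and intronic extra bases, with points of at least 20 pairs. The coding line goes from 41.0% to 83.4%, while the 5′ UTR line ends at 36.1% and the dotted line marks 33.3%.

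Acceptor and donor pairs of the same library were compared next, with 2-sided exact permutation tests that flip the sign of the difference within each of the 6 libraries. The libraries share many pairs, so these p-values concern these libraries. A shift of 3 made up 2.29% ± 0.273 of acceptor pairs and 0.133% ± 0.106 of donor pairs (SD, n = 6). The difference was 2.16 percentage points, between 1.83 and 2.45 in single libraries and in the same direction in 6 of 6 (exact permutation test, p = 0.031, the smallest possible, adjusted p = 0.046875 over 3 comparisons). The share of shifts that are a multiple of 3 was 49.1% ± 1.05 in acceptor pairs and 46.8% ± 0.873 in donor pairs, higher in 6 of 6 libraries by 2.37 points (exact permutation test, p = 0.031, adjusted p = 0.046875). Shifts of 3 are themselves multiples of 3, so this difference includes the 2.16 points above and is not a separate result. The direction for multiples of 3 also depended on which pairs entered. With shifts of at most 100 bases it turned, and acceptor minus donor pairs gave -2.73 points (exact permutation test, p = 0.031), and without pairs that contain an exon the difference was 0.548 points (exact permutation test, p = 0.219). Both sites were annotated in 74.7% ± 2.53 of acceptor pairs and 73.1% ± 0.858 of donor pairs, higher in 5 of 6 libraries by 1.56 points (exact permutation test, p = 0.125). Without pairs that contain an exon this difference was 5.97 points, and with pairs of at least 2 libraries 3.50 points (exact permutation test, p = 0.031 each).

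The groups were compared to ask whether acceptor choice in the lists went along with morphine training. Saline libraries 1, 2 and 3 listed 1412, 1359 and 1459 pairs, and morphine libraries 1, 2 and 3 listed 1510, 1654 and 1397. The highest number was in morphine library 2, the groups overlapped, and the means were 1410 ± 50.0 and 1520 ± 129 (SD, n = 3, exact permutation test, p = 0.3). Without morphine library 2 the difference of means was 43.5 pairs, against 110.3 with it. With 3 libraries against 3 the smallest possible p is 0.1, so that no difference could pass 0.05. Relative depth, with saline library 1 set to 1, was 1.07 and 1.37 in saline libraries 2 and 3 and 1.20, 1.59 and 1.29 in the morphine libraries, and morphine library 2 was thus also the deepest. Over the 6 libraries the number of pairs and relative depth gave r = 0.807 (exact permutation p = 0.0514) and a Spearman coefficient of 0.6 (exact permutation p = 0.242), for the 1 relation computed. Without morphine library 2 and saline library 1, the farthest from the median depth, r was 0.437. It was 0.418 without morphine library 2 alone and 0.839 without saline library 1 alone, so the relation rests on morphine library 2, and each group holds too few libraries for a value of its own. Per 1000 exon entries with an alternative end, the libraries held 309.9, 311.0 and 319.8 pairs in saline and 313.3, 328.6 and 309.4 in morphine.

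The share of pairs with both acceptors annotated was the single measure of the 4 compared in which the groups did not overlap. It was 77.5%, 76.9% and 75.5% in saline libraries 1, 2 and 3, and 74.4%, 70.6% and 73.3% in morphine libraries 1, 2 and 3. The means were 76.6% ± 0.999 and 72.8% ± 1.93 (SD, n = 3), and morphine minus saline gave -3.87 points (exact permutation test, p = 0.1, the smallest possible, adjusted p = 0.4 over 4 comparisons). With pairs of at least 2 libraries the difference was -1.42 points (exact permutation test, p = 0.1). The lowest share was in morphine library 2, the deepest library, and the part of depth in this difference was not tested. For shifts that are a multiple of 3, the saline mean was 49.8% ± 0.911 and the morphine mean 48.5% ± 0.866 (SD, n = 3, exact permutation test, p = 0.2). Among coding pairs it lay between 66.3% and 68.6% in the saline libraries and between 66.0% and 68.3% in the morphine libraries, which overlap. A shift of 3 made up 2.29% ± 0.154 and 2.29% ± 0.403 of pairs (SD, n = 3, exact permutation test, p = 1.0), with 31, 30 and 36 pairs in saline and 29, 37 and 38 in morphine. Adjusted p was 0.4 or higher for each of the 4 measures.

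**Figure D4:**
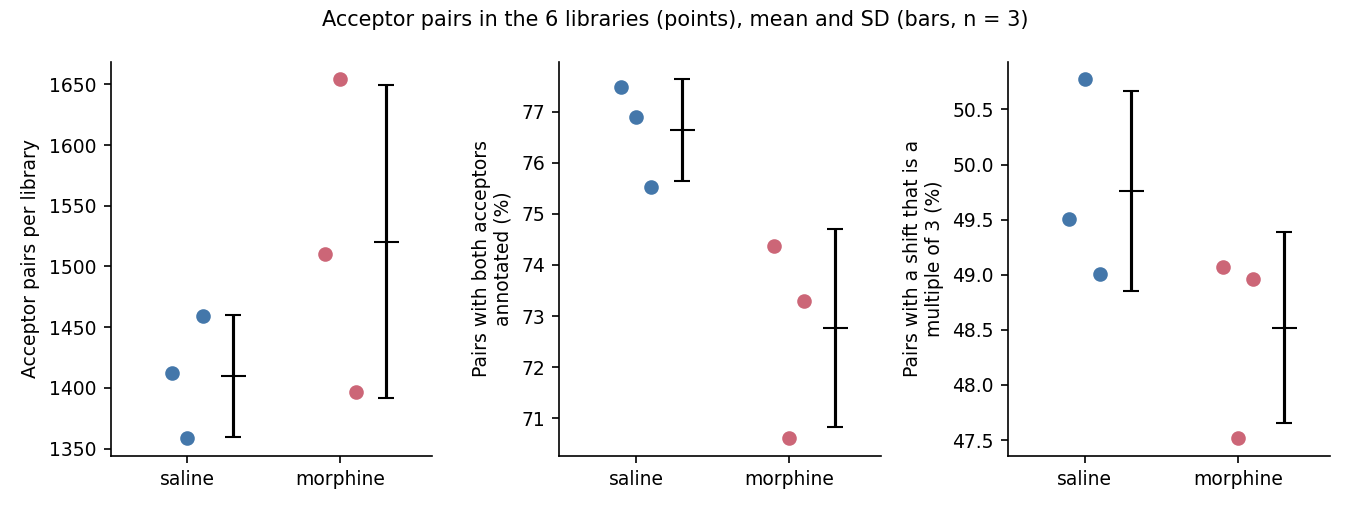
Number of acceptor pairs, share with both acceptors annotated and share with a shift that is a multiple of 3, by library (points), with mean and SD of 3 libraries (bars, axes not starting at 0). Morphine library 2 has the most pairs (1654) and the lowest share annotated (70.6%), and only in the middle panel do the groups not overlap.

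The share of pairs that libraries had in common overlapped within and between groups. Of the pairs listed in either of 2 libraries, 35.6% to 38.7% were listed in both for the 3 comparisons among saline libraries, 33.4% to 35.8% for the 3 among morphine libraries and 33.0% to 37.3% for the 9 between groups.

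Group-specific pairs, those that each of the 3 libraries of 1 group listed and no library of the other group did, numbered 43 (1.08% of 3969). Of all events of the lists, 0.66% had this pattern, and of donor pairs 0.647%, or 20. There were 18 saline-specific pairs (0.454%, against 0.278% of all events and 0.323% of donor pairs) in 18 genes, and 25 morphine-specific pairs (0.630%, against 0.382% and 0.323%) in 22 genes. Presence lists give no test per pair, and the share of such pairs among acceptors was not tested against these backgrounds. The genes of all 43 pairs were listed in all 6 libraries, so none of these pairs was specific through a gene missing from the lists. The same held for 3923 of the 3969 pairs, and a listed gene gives no measure of coverage at the exon. Both acceptors were annotated in 15 of 18 and 13 of 25, the extra bases were coding in 10 and 10, and the shift was a multiple of 3 in 4 of 18 (22.2%) and 10 of 25 (40.0%). Of all 267 pairs listed in any 3 libraries, 39.0% had such a shift. For each group, coding pairs with both acceptors annotated are shown. They are those with the smallest shifts among pairs whose printed bases were all coding in a single transcript with the outer acceptor. The Hdac5 pair with a shift of 3 was not among these.
Ep400: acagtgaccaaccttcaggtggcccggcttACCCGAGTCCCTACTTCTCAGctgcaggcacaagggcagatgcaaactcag
Med13l: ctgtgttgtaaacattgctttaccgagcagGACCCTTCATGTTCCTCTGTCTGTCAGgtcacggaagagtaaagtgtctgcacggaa
Uevld: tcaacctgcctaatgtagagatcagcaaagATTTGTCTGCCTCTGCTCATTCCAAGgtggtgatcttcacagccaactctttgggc
Ankrd13b: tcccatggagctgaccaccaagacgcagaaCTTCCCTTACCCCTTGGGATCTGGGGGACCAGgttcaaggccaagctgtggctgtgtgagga

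In the saline libraries, Ep400, an ATPase of the TIP60 chromatin complex, had a shift of 21 at chr5:110668725-110668745 (minus strand), and Med13l, of the Mediator kinase module, a shift of 27 at chr5:118751840-118751866 (plus strand). Both shifts are multiples of 3. Ankzf1, a ribosome quality control factor, followed with 31 bases. The remaining saline-specific pairs named by the rule were Mief2 (a mitochondrial division factor, 47 bases), Mical1 (an actin-oxidising enzyme, 69 bases), Cc2d1b (74 bases), Tsg101 (a subunit of ESCRT-I, 77 bases) and Arfrp1 (a GTPase of the trans-Golgi, 83 bases). Among these, Mief2, Mical1 and Arfrp1 had their extra bases in non-coding exons. Each was listed in saline libraries 1, 2 and 3 and in none of the morphine libraries.

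In the morphine libraries, Uevld, a ubiquitin E2 variant, had a shift of 26 at chr7:46940278-46940303 (minus strand), and Ankrd13b, a ubiquitin-binding ankyrin repeat protein, a shift of 32 at chr11:77473169-77473200 (minus strand), neither of them a multiple of 3. Arv1, of sterol transport, and Ctu2, of tRNA thiolation, had shifts of 47 in coding sequence. Zfp946 (a zinc finger protein, 18 bases in the 5′ UTR), Dhx35 (an RNA helicase, 20 bases) and Tbrg4 (a regulator of mitochondrial RNA, 78 bases) completed the list with Hdac5. Uevld and the saline-specific Tsg101 lie close together on chromosome 7, with extra bases beginning at 46940278 and 46908992.

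Hdac5, a class IIa histone deacetylase of neurons, was the one gene with a group-specific shift of 3. Its extra bases lie at chr11:102218488-102218490 (minus strand) in coding sequence, and both acceptors are annotated. The same exon, with its downstream end at 102218416, carried an outer acceptor at 102218953 that is not annotated, and gave pairs with shifts of 463 and 466 that were also morphine-specific. In both of these longer pairs the extra bases contain a whole annotated exon and are only partly annotated. In all, Hdac5 had 10 pairs at this exon, with 0 in each of the saline libraries and 3, 10 and 6 in morphine libraries 1, 2 and 3. All 10 share 1 downstream end. Every combination of acceptors listed at an end counts as a pair, so pair numbers rise faster than acceptor numbers. Of the 10 pairs, 8 contained a whole annotated exon and 4 were listed in 1 library. Pair numbers did not overlap between the groups in 5 of 82 genes with 5 or more pairs (6.1%), and in 1.6% of all genes with a pair. The 3 morphine-specific pairs of Hdac5 thus share an exon and are not independent. The highest number was in the deepest library. Hdac5 was listed with other events in the saline libraries, and a level of either form was not measured.

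Few genes held many pairs. C2cd5, a C2 domain protein of vesicle traffic, had the most with 16, of which 15 contained a whole annotated exon, 11 were listed in 1 library and 0 in all 6. Its pairs numbered 1, 2 and 5 in the saline libraries and 10, 3 and 1 in the morphine libraries, so that morphine library 1 held most of them and the groups overlap. Dnajb5, a heat shock co-chaperone, had 13 pairs, with 9, 2 and 1 in saline and 4, 7 and 0 in morphine. Pkd1, the polycystin-1 gene, and Uggt2, a glucosyltransferase of glycoprotein folding, had 13 each, and Unc79, a subunit of the sodium leak channel complex, had 12. In Pkd1 the saline libraries listed 3, 2 and 2 pairs and the morphine libraries 8, 7 and 4, which do not overlap. Of genes with 5 or more pairs, 6.1% (5 of 82) had pair numbers that did not overlap between the groups, and of all genes with a pair 1.6%. In Uggt2 they listed 6, 1 and 4 against 2, 6 and 2, and in Unc79 4, 7 and 3 against 3, 4 and 2, which overlap. Each of Pkd1, Uggt2 and Unc79 had 1 pair listed in all 6 libraries.

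Lists of genes were then described by how many members held a pair, beside the 15.1% of all listed genes with a pair and the 2.62% with a pair in all 6 libraries. The shares were not adjusted for the number of exons or for depth per gene, and were not tested. Splicing factors had the highest share, 32 of 56 genes (57.1%), and 6 of them held a pair in all 6 libraries, including Hnrnpc, Celf1 and Celf2. Their pairs numbered 24, 25 and 25 in the saline libraries and 22, 28 and 22 in the morphine libraries, which overlap. Chromatin enzymes and regulators held a pair in 21 of 53 genes (39.6%), 7 of them in all 6 libraries, among them Chd3, a paralog of Chd4, with a shift of 12, and the histone methyltransferase Ehmt1 with a shift of 21. Their pairs numbered 17, 17 and 14 in saline and 21, 28 and 26 in morphine. The groups do not overlap in this list, which was the case in 1 of the 16 lists. Hdac5 alone contributed 3, 10 and 6 pairs in the morphine libraries, all at 1 shared end. Without it the numbers were 17, 17 and 14 against 18, 18 and 20, which still do not overlap but lie closer together.

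Genes of the synapse and the axon varied. The list of voltage-gated ion channels, which also holds some genes of other kinds, had a pair in 17 of 35 genes (48.6%). Of its genes, 3 had one in all 6 libraries, including the T-type calcium channel Cacna1i with a shift of 39. Another was Kcnj9, an inwardly rectifying potassium channel that is not voltage-gated, with 30 bases in the 5′ UTR. Cytoskeletal and axon initial segment genes held a pair in 12 of 30 (40.0%), with Epb41l3, a protein 4.1 of the membrane skeleton, at 54 bases beside both ankyrins. Synaptic adhesion genes held one in 11 of 28 (39.3%), but only Ncam1 in all 6 libraries, with a shift of 7670 that contains a whole annotated exon. Glutamate receptor and scaffold genes held one in 15 of 39 (38.5%), 7 of them in all 6 libraries, including Dlg1, Kalrn and the scaffold Dlgap3 with 33 bases. Presynaptic genes held one in 9 of 33 (27.3%), and only that of the active zone protein Pclo, at 39 bases, was listed in all 6 libraries. The pair of Rims1, another active zone protein, had 27 bases and was listed in saline libraries 1 and 2 and morphine libraries 1 and 2. GABA synapse genes held a pair in 1 of 17 (5.88%), and this pair of the vesicular transporter Slc32a1 lay on the strand opposite to the gene.

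Of opioid, dopamine and cAMP signalling genes, 8 of 43 (18.6%) held a pair. In 3 of them it was listed in all 6 libraries, in Arrb2 and, with a shift of 30 in the 5′ UTR, in both Oprk1, the kappa opioid receptor, and Pomc, the precursor of beta-endorphin. The extra bases of Oprk1 lie at chr1:5589005-5589034 and those of Pomc at chr12:3958076-3958105. Pairs of this list numbered 4, 4 and 5 in the saline libraries and 6, 4 and 4 in the morphine libraries, which overlap. Immediate early genes, which neurons transcribe within minutes of activity, held a pair in 0 of 13 listed genes. Markers of striatal medium spiny neurons held one in 2 of 15 (13.3%), Rarb and Foxp1, each in saline library 2 only.

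Markers of other cells that the dissected tissue holds were described in the same way. Oligodendrocyte markers held a pair in 1 of 16 genes, astrocyte markers in 1 of 10, microglia markers in 2 of 8 and vascular and ependymal markers in 1 of 9. The pair of Trem2, a lipid receptor of microglia, had a shift of 55 in coding sequence and was listed in all 6 libraries, the one marker pair of another cell type that was. Opalin, Aldoc and Aif1 had a pair in 1 library each. Pairs of the ependymal gene Ccdc153 were listed in morphine libraries 1 and 2, with 1 and 3 pairs, and in none of the saline libraries.

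**Figure D5:**
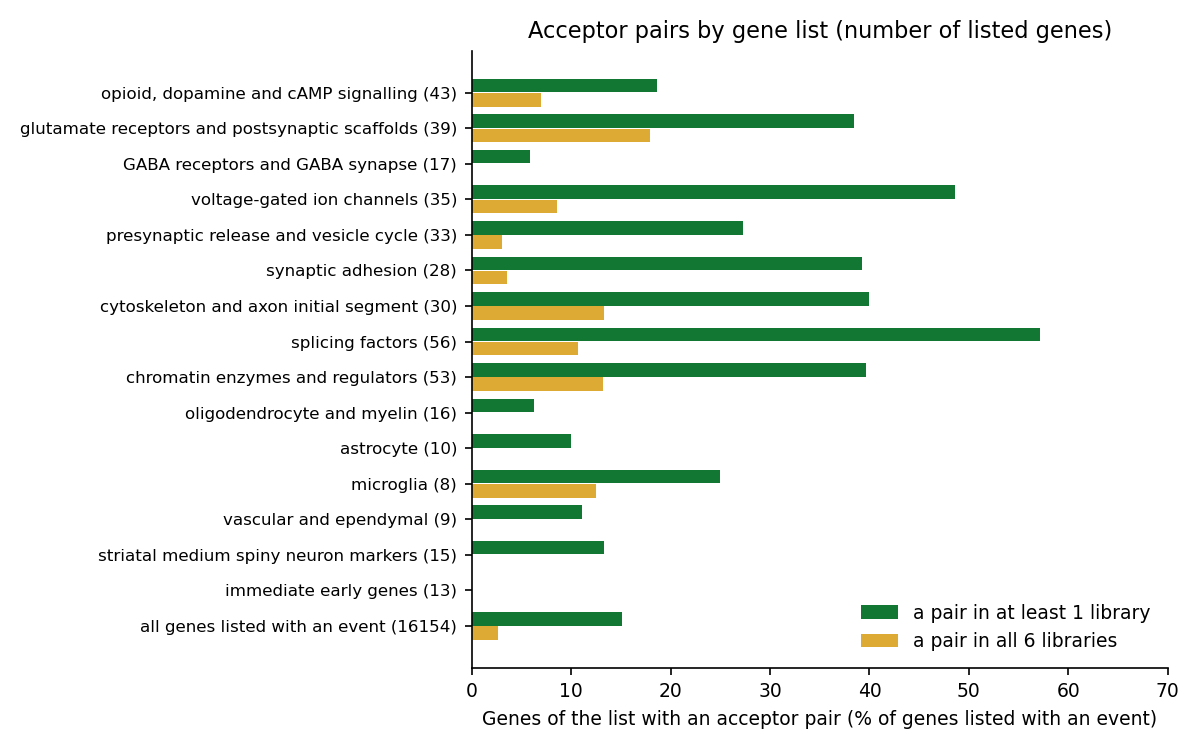
Share of the listed genes of each list that hold an acceptor pair in at least 1 library or in all 6 libraries (percent of listed genes, number of genes in brackets). Splicing factors reach 57.1% and 10.7%, against 15.1% and 2.62% of all listed genes, and immediate early genes are at 0.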

How the data were processed

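Total RNA of the NAc of 6 libraries was sequenced by the authors, with groups taken from the treatment label. Reads were mapped with HISAT2 and transcripts assembled with StringTie, per the study's methods. The program behind the event lists and its build are not given in the sources used here. The event lists, as deposited by the authors, label a score column as FPKM although its values are 0 or whole numbers below 0. This score was left aside, so there are no levels, and presence depends on depth and assembly. The authors' deposited table of selected long non-coding RNAs gave a count and an FPKM value per library, whose ratio gave relative depth (91 values with at least 10 counts). Its fold changes and p-values were not used.

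Pairs were built within library, gene, chromosome and strand from entries of type AE and merged over 6 libraries. Coordinates, counted from 1, fitted GENCODE M21 on GRCm38, and 3953 of 3969 pairs matched its genes. Sequence was read through annotated transcripts, since no genome sequence was used here, and sites outside transcripts were not read. Group means were compared by 2-sided exact permutation tests and acceptor with donor pairs by exact sign-flip permutation within library, adjusted by Benjamini-Hochberg with a threshold of 0.05. A figure legend of the study gives 1 mouse per library and the series description more mice than samples, so p-values are taken to measure only the spread between these libraries. The tests were checked on simulated data.

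Members, lists and tests were chosen with earlier results of these data known. Pairs were named by rules for coding tandem acceptors in all 6 libraries and genes of the lists, up to 8 group-specific pairs per group (both acceptors annotated first, then smallest shift), the 5 genes with most pairs, and up to 3 genes per list listed in most libraries. Some items that these rules named are not reported here. The rule asked for AG in the genome at both acceptors, and AG at the inner acceptor was used in its place. Alternatives were main chromosomes and gene strand only, neighbouring exons only, shifts of at most 100 bases, genes listed in all libraries, numbers per 1000 entries and each library left out. Added after seeing the data were pairs with a splice dinucleotide read, pairs without a contained exon and pairs of at least 2 libraries. Scripts ran in Python 3.11.15 with scipy 1.17.1, pandas 2.3.3, numpy 2.4.6 and, for figures, matplotlib 3.10.9.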

Additional observations from a re-analysis of the deposited data

How the results depend on the processing

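The differences between groups in the number of pairs, the share of multiples of 3 and the share with both acceptors annotated kept their direction under all alternatives run, while no alternative could pass the threshold with 3 libraries a group. With pairs of at least 2 libraries they were 19.7 pairs, -0.491 points and -1.42 points. Without pairs that contain an exon they were 46.7 pairs, -0.430 and -4.34 points, and the first difference was 40.7 pairs with shifts of at most 100 bases and 40.3 with the splice dinucleotide read. Leaving out each library in turn gave 43.5 to 172.0 pairs, -1.62 to -0.737 points and -4.68 to -2.80 points. The group difference in the share of shifts of 3, 0.00241 points, changed sign with main chromosomes and gene strand only (-0.0199) and ranged from -0.211 to 0.188 without single libraries, being negative without saline library 1 (-0.0449), saline library 2 (-0.0389) or morphine library 3 (-0.211). For multiples of 3 in acceptor against donor pairs, the difference was -2.73 points with shifts of at most 100 bases (exact permutation p = 0.031), 1.55 with the splice dinucleotide read (exact permutation p = 0.0625) and 0.548 without pairs that contain an exon (exact permutation p = 0.219). The cause of the turn was not tested. For both sites annotated it was 5.97 without pairs that contain an exon and 3.50 with pairs of at least 2 libraries (exact permutation p = 0.031 each). Without single libraries these 2 differences and that of shifts of 3 were 2.18 to 2.65, 1.06 to 2.17 and 2.10 to 2.22 points, and 5 libraries allow no exact permutation p under 0.0625. The relation with depth had r from 0.418 to 0.878. Group-specific pairs numbered 29 to 43. The planned check of AG at both acceptors was not run, since it needs a genome sequence. No paired analysis was possible because the labels give no replicate numbers shared between groups. Without levels, a pair that was not listed may still be used in the tissue.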
